A study of Mus musculus with 15 samples.

Results

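The effect of 5-azacytidine (AzaC) on the mammary epithelium at the end of pregnancy was measured by comparing transcripts between AzaC and PBS arrays at pregnancy day 21. The comparison uses 5 of the 15 arrays of the series, chosen by their titles, and covers all 12393 genes that a probe set with a single gene symbol represents. The series concerns pregnancy and DNA methylation in mammary epithelial stem cells, and these arrays are its experiment with drugs that act on chromatin. All mice were C57BL/6 females, injected into the peritoneum. Mammary epithelial cells were purified from digested glands, and mRNA was hybridised as biotinylated cRNA to 1-colour Affymetrix arrays. At day 21 there were 3 AzaC arrays, 2 arrays of the vehicle PBS and 3 arrays of valproic acid (VPA). Females labelled virgin, at 9 weeks, gave 2 PBS and 3 AzaC arrays that are used for comparison, and 2 VPA arrays that entered only the shared estimate of the spread. Doses, the number and time of the injections and the age of the pregnant mice are not given in the labels. Whether each array stands for its own mouse is not given either, so the spread behind the p-values is that between arrays and may be technical.

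AzaC is a cytidine analogue that cells phosphorylate and build into RNA and, after reduction, into DNA, where it traps DNA methyltransferases. Loss of methylation then depends on replication. VPA inhibits histone deacetylases. In late pregnancy the alveolar epithelium divides and then turns to secretion: prolactin acts through STAT5 on milk protein genes, SREBP factors drive sterol and fatty acid synthesis, and the endoplasmic reticulum and its mitochondria expand. When milk stays in the gland, LIF and related cytokines activate STAT3, which starts involution, the regression of the secretory epithelium.

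With AzaC, several genes each of sterol and fatty acid synthesis, the secretory pathway and DNA replication fell, while several of cytokine signalling through STAT3, of the immediate early response and of luminal progenitors rose. Of 12393 genes, 938 passed an adjusted p of 0.05 in limma (7.57%): 466 rose (3.76%) and 472 fell (3.81%). Values are the deposited ones, taken as log2 because their range is that of log2 array signals, although the base is not stated; a difference of 1 is then a doubling. The median change of all genes was 0.04. Of the genes that rose, 358 did so by at least 1 and 94 by at least 2, and of those that fell, 314 and 49. The 3 AzaC arrays did not overlap the 2 PBS arrays in any of the 938, but without regard to the test all AzaC arrays lay above both PBS arrays for 23.5% of genes and below them for 20.9%.

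**Figure D1:**
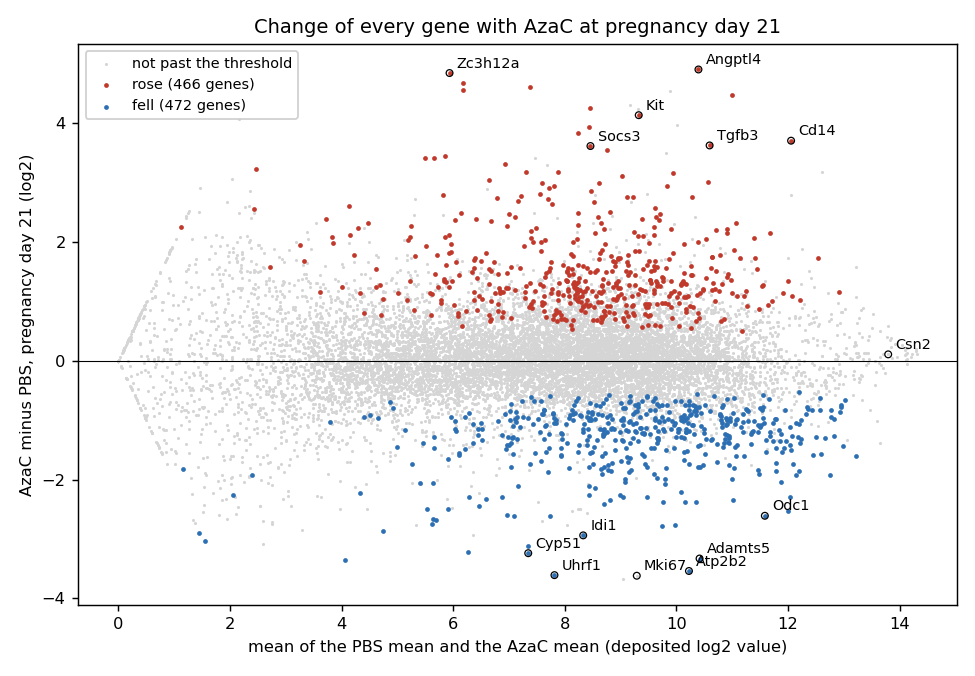
Difference between the AzaC and PBS means at pregnancy day 21 (vertical axis, log2) against the mean of both group means (horizontal axis, deposited log2 value), 1 point per gene, with 466 genes that rose in red and 472 that fell in blue. Circled genes are named; Angptl4 lies highest of these at 4.91, Mki67 lies at -3.62 without passing the threshold, and Csn2 lies near 0.

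These calls rest on few arrays. Without PBS replicate 1, 16 genes passed, without PBS replicate 2, 14, and 3 passed in both cases: Socs3, Wfdc5, a secreted protease inhibitor-like protein, and Mst1r, a receptor tyrosine kinase at the bottom of the scale. Mst1r read 2.05 and 2.09 with PBS and 0.75, 0.00 and 0.00 with AzaC, so it is listed at 0 on 2 arrays and has no interpretable fold. In a fit of the 5 arrays alone no gene passed (smallest adjusted p = 0.0528), while 3049 had an unadjusted p under 0.05, against 3241 in the fit of all 15. Without AzaC replicate 1 the count was 177, without replicate 3 it was 138, and without replicate 2 it was 1335. AzaC replicate 2 was the AzaC array nearest PBS for 73.7% of the genes that fell and 72.1% of those that rose. The 3' to 5' difference of control probe sets, a measure of RNA integrity, was 0.23 and 0.575 on the PBS arrays and 0.655, 0.005 and 0.20 on the AzaC arrays, with replicate 2 lowest. For most lists the count of members with each of the 5 arrays left out in turn is given below as a range, and without either PBS array no list had more than 2 members past the threshold.

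**Figure D2:**
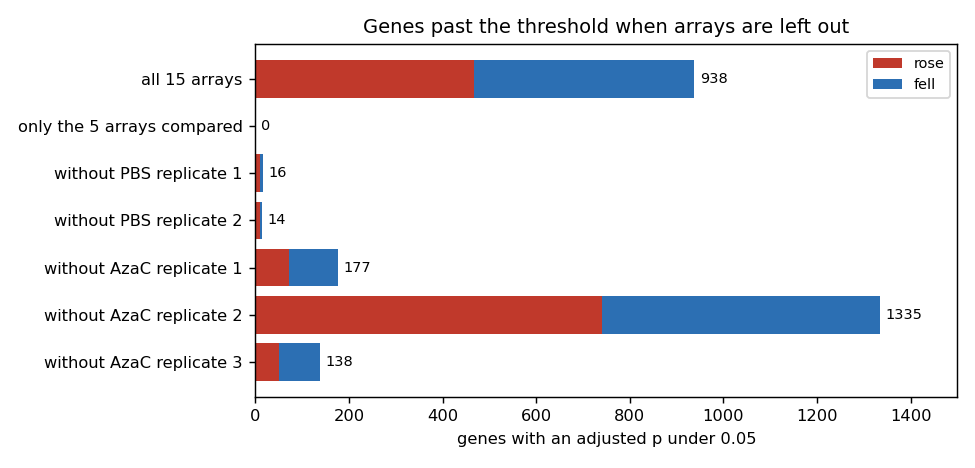
Number of genes past an adjusted p of 0.05 (horizontal axis) in the fit of all 15 arrays, of only the 5 arrays compared, and with each of those 5 left out of the fit of all. Red segments are rises and blue segments falls; the bars reach 938 with all arrays, 16 and 14 without a PBS array, and 0 with the 5 arrays alone.

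The labelled cell type was checked against its markers. Epcam, an epithelial adhesion molecule, read 11.95 and 11.65 with PBS and 12.44, 12.57 and 13.07 with AzaC, and Krt8, a luminal keratin, 11.55 and 11.63 with PBS and 13.17, 12.51 and 12.95 with AzaC. Markers of other tissues were also on the arrays: Acta1, the actin of skeletal muscle, read 13.47 and 12.34 with PBS and 12.7, 14 and 14.2 with AzaC, and Adipoq, the adipocyte hormone adiponectin, 9.99 and 8.24 with PBS and 10.67, 9.88 and 8.51 with AzaC. The groups overlapped for both genes, and both spread widely between the 2 PBS arrays. The part of other tissues in the results was not tested. Wap and Csn2, milk proteins of secretory cells, read near the highest value of the table, 14.48, on all 5 arrays, and did so on virgin arrays too.

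Enzymes of sterol synthesis fell, from the mevalonate branch to the last steps. Of 18 measured genes of the pathway 8 fell and none rose (0 to 8 fell with an array left out), with a median of -1.19 against 0.04 for all genes, and 16 of 18 had a negative change. In the mevalonate branch, Idi1, which isomerises isopentenyl diphosphate, read 9.86 and 9.75 with PBS and 6.63, 7.8 and 6.16 with AzaC. It fell by 2.94 ± 0.44 (SE, adjusted p = 0.01). Fdps, farnesyl diphosphate synthase, read 11.51 and 11.2 with PBS and 7.84, 9.97 and 7.99 with AzaC. All AzaC arrays lay below both PBS arrays for either gene, as for every gene that passed and fell, with replicate 2 between the others and PBS. Fdps fell by 2.76 ± 0.50 (SE, adjusted p = 0.0135). A second, dim probe set of Fdps gave -0.53.

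Enzymes from squalene onward fell as well. Sqle, squalene epoxidase, read 11.63 and 11.43 with PBS and 8.85, 10.14 and 8.49 with AzaC and fell by 2.37 ± 0.42 (SE, adjusted p = 0.0133). Cyp51, the lanosterol demethylase, read 9.14 and 8.79 with PBS and 5.17, 6.77 and 5.24 with AzaC and fell by 3.24 ± 0.50 (SE, adjusted p = 0.01), a 9.44-fold lower level. The other members that passed were Lss, lanosterol synthase (-1.12), Msmo1, the C4-methylsterol oxidase (-2.14), Ebp, a sterol isomerase (-0.9), and Dhcr7, which makes cholesterol from its last precursor (-1.74). Hmgcs1, at the entry of the pathway, differed by -0.97 (adjusted p = 0.133). The kinase Pmvk differed by -2.49 (adjusted p = 0.0511) and the sterol reductase Tm7sf2 differed by -2.77 (adjusted p = 0.0672), so neither passed despite the size of the difference. On the side of sterol handling, Stard4, a sterol carrier, fell by 1.5 ± 0.30 (SE, adjusted p = 0.0193), and Tmem97, which binds the lysosomal cholesterol transporter, fell by 2.62 ± 0.47 (SE, adjusted p = 0.0135). Npc1, that transporter, rose by 1.56 ± 0.25 (SE, adjusted p = 0.0112), and Mylip, a ubiquitin ligase that sterols induce, rose by 2.05 ± 0.53 (SE, adjusted p = 0.0398). The regulators themselves did not pass: Srebf1 differed by -0.23 (adjusted p = 0.657), Srebf2 by 0.31 (adjusted p = 0.375) and Scap by -0.37 (adjusted p = 0.522).

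The promoters of these enzymes are shown because they fell together and the factors that read them are known. The windows of RefSeq (build GRCm38.p6) hold 250 bases before and 50 after a start, and 15 of the 18 genes have one. The CCAAT box, read by NF-Y and searched on both strands as CCAAT, is in the windows of all 15, against 42.3% of the 9887 measured genes with a window and 37.4% of all 32851 windows. The sterol regulatory element, searched on both strands only as TCACNCCAC, is in 1 of the 15 (Hmgcs1), against 1.5% of measured genes and 1.24% of windows. Other forms of the element were not searched. The 250 bases before the start of Idi1, Cyp51 and Msmo1 follow, with CCAAT or its complement in capitals. All 3 genes fell, and none of these stretches holds the letters TCACNCCAC or the E2F letters given further on.
Idi1, chr13:8885356-8885605, plus strand: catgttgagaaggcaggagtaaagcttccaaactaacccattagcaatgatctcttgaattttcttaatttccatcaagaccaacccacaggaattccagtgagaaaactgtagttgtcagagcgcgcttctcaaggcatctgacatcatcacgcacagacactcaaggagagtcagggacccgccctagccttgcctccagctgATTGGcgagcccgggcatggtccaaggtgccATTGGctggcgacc
Cyp51, chr5:4104698-4104947, minus strand: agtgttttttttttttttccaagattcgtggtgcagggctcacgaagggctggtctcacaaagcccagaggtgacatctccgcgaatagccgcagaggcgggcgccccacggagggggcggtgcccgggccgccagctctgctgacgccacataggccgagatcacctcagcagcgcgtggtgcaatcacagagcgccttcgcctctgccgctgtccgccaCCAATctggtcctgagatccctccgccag
Msmo1, chr8:64733579-64733828, minus strand: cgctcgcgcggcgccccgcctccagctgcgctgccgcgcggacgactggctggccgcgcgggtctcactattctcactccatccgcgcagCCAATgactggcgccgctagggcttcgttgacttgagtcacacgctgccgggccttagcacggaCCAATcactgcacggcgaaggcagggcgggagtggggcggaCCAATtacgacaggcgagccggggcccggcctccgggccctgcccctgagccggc
The match is a description of the letters. Cyp51 has 1 box in this stretch, Idi1 has 2 and Msmo1 has 3.

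Fatty acid synthesis fell at several steps. Of 20 measured genes 8 fell and 1 rose (0 to 11 fell with an array left out), with a median of -1.17. Fasn, fatty acid synthase, read 14.07 and 13.98 with PBS and 12.49, 13.26 and 11.49 with AzaC and fell by 1.61 ± 0.39 (SE, adjusted p = 0.0339). Acss2, which makes acetyl-CoA from acetate, fell by 2.08 ± 0.40 (SE, adjusted p = 0.0165), and Acacb, an acetyl-CoA carboxylase, fell by 2.21 ± 0.44 (SE, adjusted p = 0.0188). Scd2, a stearoyl-CoA desaturase, read 13.26 and 13.11 with PBS and 9.91, 11.66 and 11.12 with AzaC and fell by 2.29 ± 0.54 (SE, adjusted p = 0.0298). Among enzymes that lengthen and desaturate chains, Elovl5 (-1.86), Fads1 (-1.57) and Fads2 (-1.54) fell, as did Thrsp, a regulator of lipogenesis in this tissue (-1.26). Fads3 was the exception that rose, by 2.37, and its second probe set gave 0.83. Acly, ATP citrate lyase, differed by -1.34 (adjusted p = 0.0551). Scd1, a close paralog of Scd2 whose transcripts the probes may not fully separate, differed by 0.12 (adjusted p = 0.658). Its second probe set, with a mean of 13.12, gave -0.88, so the probe sets of Scd1 disagree in sign. The Fasn value on AzaC replicate 2, 13.26, was the nearest to PBS.

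Genes that assemble triglycerides and the milk fat globule mostly did not pass: 3 of 25 fell (0 to 4 with an array left out) and 1 rose, with a median of -0.09. Of all genes 3.81% fell and 3.76% rose. Cidea, a lipid droplet protein, read 13.79 and 13.65 with PBS and 11.82, 12.9 and 10.64 with AzaC and fell by 1.93 ± 0.48 (SE, adjusted p = 0.0349), Lpin1, a phosphatidate phosphatase, fell by 1.24 ± 0.17 (SE, adjusted p = 0.01) and Agpat1, an acyltransferase, fell by 0.92 ± 0.25 (SE, adjusted p = 0.0475). Slc27a1, a fatty acid transporter, rose by 1.62 ± 0.39 (SE, adjusted p = 0.0314). The globule proteins Btn1a1 (0.05), Xdh (-0.07), Mfge8 (0.03) and Plin2 (0.29) had adjusted p between 0.159 and 0.91.

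Some genes of fatty acid oxidation rose. Of 28 measured genes 6 rose and none fell (0 to 4 rose with an array left out), with a median of 0.52. Angptl4, a PPAR target that inhibits lipoprotein lipase, read 8.01 and 7.88 with PBS and 13.15, 13.23 and 12.18 with AzaC. This was the largest difference in the table that passed the test, 30-fold, and it rose by 4.91 ± 0.80 (SE, adjusted p = 0.0115); a second, dim probe set gave 1.0. Cpt1a, which admits fatty acids to mitochondria, rose by 1.45 ± 0.28 (SE, adjusted p = 0.0177), its partner Cpt2 rose by 0.83 ± 0.22 (SE, adjusted p = 0.0455) and Ucp3, a mitochondrial carrier, rose by 2.12 ± 0.38 (SE, adjusted p = 0.0135). Eci2 (1.55) and Acadl (2.2), enzymes of beta-oxidation, rose too, although a dim second probe set of Acadl gave 0.24. The receptors did not pass: Ppara differed by -0.8 (adjusted p = 0.176), Pparg by 0.93 (adjusted p = 0.263) and Ppard by -2.08 (adjusted p = 0.376).

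Genes of glucose uptake and glycolysis fell by smaller amounts. Of 18 genes 7 fell and none rose (0 to 6 fell with an array left out), with a median of -0.53. Slc2a1, the main glucose transporter of the secretory cell, read 11.43 and 11.41 with PBS and 10.31, 10.44 and 10.27 with AzaC, with little spread in either group, and fell by 1.08 ± 0.13 (SE, adjusted p = 0.0062). Hk2, hexokinase, fell by 1.0 ± 0.19 (SE, adjusted p = 0.0159), and Pfkl, phosphofructokinase, fell by 1.35 ± 0.25 (SE, adjusted p = 0.0144). Aldoc (-0.86), Pgk1 (-0.83) and Pgam1 (-0.88), later steps, fell by less than 1, as did Slc16a1, a lactate carrier (-0.94). The remaining 11 genes did not pass: Pkm, pyruvate kinase, differed by -0.33 (adjusted p = 0.362), and Ldha, lactate dehydrogenase, differed by -0.35 (adjusted p = 0.339).

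Transporters that supply milk with ions and nutrients included some of the largest falls. Of 33 measured genes 10 fell and 2 rose (0 to 10 fell with an array left out); the median was 0.07. Atp2b2, the apical calcium pump of the lactating cell, read 12 and 11.99 with PBS and 8.54, 9.92 and 6.9 with AzaC. The PBS arrays were nearly equal while the AzaC arrays spread widely below them, and it fell by 3.54 ± 0.74 (SE, adjusted p = 0.0221). Orai1, a calcium entry channel, fell by 0.96 ± 0.17 (SE, adjusted p = 0.0121), and Atp2c2, a secretory pathway calcium pump, fell by 0.82 ± 0.19 (SE, adjusted p = 0.0298). The zinc transporters Slc30a2 (-1.68) and Slc30a4 (-1.2) fell. Slc30a1 (1.96) passed as a rise, but it lay under 5 with AzaC as well as PBS, near background, so its fold is not interpretable. Abcg2, which moves riboflavin into milk, fell by 1.72 ± 0.28 (SE, adjusted p = 0.0115). Slc34a2, a phosphate carrier (-1.44), Slc5a6, a vitamin carrier (-1.79), Slc7a4 (-1.79) and Folr1, a folate receptor (-1.29), also fell, and Aqp1, a water channel that endothelium shares, rose (1.72).

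Genes of the secretory pathway fell, among them a regulator and parts of the translocon. Of 44 genes 16 fell and none rose (0 to 15 fell with an array left out), with a median of -0.58, and 38 of 44 changes were negative. Bhlha15, a transcription factor that builds the secretory apparatus, read 10.91 and 10.98 with PBS and 8.09, 9.06 and 8.59 with AzaC and fell by 2.37 ± 0.27 (SE, adjusted p = 0.0062). Its second probe set, with a mean of 8.15, gave 0.01, so the call rests on 1 of 2 probe sets. The translocon-associated subunits fell together: Ssr1 (-1.2), Ssr2 (-1.47), Ssr3 (-1.08) and Ssr4 (-1.35), with Sec61b, a channel subunit (-1.17), and Sec11c, of the signal peptidase (-1.38). Ssr2 read 12.55 and 12.5 with PBS and 10.97, 11.4 and 10.79 with AzaC. Coat proteins Sec13 (-1.47) and Sec23b (-1.45) and the chaperone partners Sdf2l1 (-1.47), Dnajb11 (-1.15), Manf (-1.39) and Dnajc3 (-1.05) fell, as did P4hb, a disulphide isomerase (-0.78), and Edem1, of degradation (-1.13). The abundant chaperones Hspa5 (-0.61) and Hsp90b1 (-0.77) and the stress sensors and factors Atf6 (0.27), Ern1 (-0.35) and Xbp1 (0.41) did not pass, with adjusted p from 0.147 to 0.398. Stx19, a SNARE protein of membrane fusion, fell by 2.61 ± 0.50 (SE, adjusted p = 0.0164).

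Milk protein transcripts themselves did not pass, with 1 exception. Csn2, beta-casein, read 13.79 and 13.69 with PBS and 13.76, 13.8 and 14 with AzaC and differed by 0.11 (adjusted p = 0.655). Wap, whey acidic protein, read 13.78 and 13.53 with PBS and 13.99, 13.94 and 14.18 with AzaC and differed by 0.38 (adjusted p = 0.171); Lalba, the regulatory subunit of lactose synthase, differed by 0.11 (adjusted p = 0.651). Values this close to the highest in the table may be limited by the range of the array, which was not tested. Lpo, lactoperoxidase, was the 1 of 13 genes that passed: it read 10.86 and 10.59 with PBS and 8.52, 9.42 and 8.83 with AzaC and fell by 1.8 ± 0.32 (SE, adjusted p = 0.0133). In the prolactin pathway Ehf, an epithelial ETS factor, was the 1 of 16 genes that passed and rose by 0.97. Of all genes 7.57% were called, which is near the share in either list. Stat5a, the transducer of prolactin, differed by -0.44 (adjusted p = 0.396), and its kinase Jak2 differed by 0.77 (adjusted p = 0.0652). The alveolar factor Elf5 differed by 0.26 (adjusted p = 0.424), and its second probe set gave -0.35. The mean over the 13 milk protein genes was 13.6 and 13.74 on PBS arrays and 13.48 to 13.63 on AzaC arrays.

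**Figure D3:**
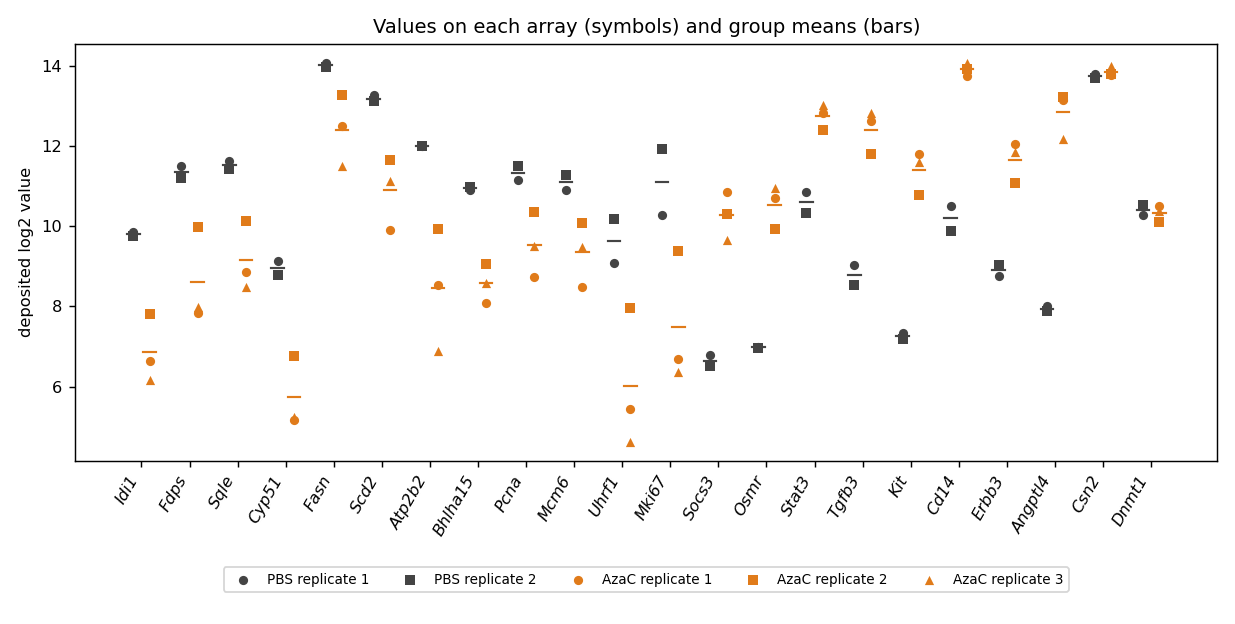
Deposited log2 values (vertical axis) of 22 genes on the 2 PBS arrays (grey) and 3 AzaC arrays (orange) of pregnancy day 21, with group means as bars and replicates by symbol. AzaC replicate 2 (square) lies between PBS and the other AzaC arrays in genes that fell such as Cyp51, at 6.77 against 5.17 and 5.24, and the groups overlap in Dnmt1.

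In the cytokine pathway of involution a ligand, a receptor, the transducer and its feedback inhibitor rose. Of 30 genes of STAT3 signalling and involution 7 rose and none fell (1 to 8 rose with an array left out), with a median of 1.02, and 28 of 30 had a positive change. Lif, the ligand, read 4.85 and 4.75 with PBS and 7.66, 6.21 and 6.79 with AzaC and rose by 2.09 ± 0.40 (SE, adjusted p = 0.0171); a dim second probe set gave -0.69. Osmr, the receptor of oncostatin M, read 6.98 and 6.97 with PBS and 10.71, 9.93 and 10.94 with AzaC and rose by 3.55 ± 0.60 (SE, adjusted p = 0.012). Stat3, the transducer, read 10.86 and 10.34 with PBS and 12.83, 12.4 and 13.02 with AzaC and rose by 2.15 ± 0.43 (SE, adjusted p = 0.0188), with 0.50 to 1.99 at its other probe sets. Every AzaC array lay above both PBS arrays for these 3 genes, as for every gene that passed and rose.

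Further genes of STAT3 signalling and involution rose, while others did not pass. Socs3, the feedback inhibitor of this pathway, read 6.79 and 6.52 with PBS and 10.85, 10.31 and 9.66 with AzaC. It had the smallest adjusted p of all genes and rose by 3.62 ± 0.29 (SE, adjusted p = 0.000683), 12.3-fold, and its 2 other probe sets gave 2.6 and 3.58. Tgfb3, a ligand raised early in involution, read 9.02 and 8.54 with PBS and 12.62, 11.81 and 12.81 with AzaC and rose by 3.63 ± 0.80 (SE, adjusted p = 0.0251). Pik3r1, a regulatory subunit of phosphoinositide 3-kinase, rose by 1.73 ± 0.38 (SE, adjusted p = 0.0254) and Junb, an AP-1 factor, rose by 2.49 ± 0.51 (SE, adjusted p = 0.0203). The shared receptor chain Il6st differed by 1.04 (adjusted p = 0.0837) and the LIF receptor Lifr differed by 1.12 (adjusted p = 0.0563). Other genes linked to involution did not pass either: Igfbp5, which blocks IGF, differed by 3.19 (adjusted p = 0.143), Cebpd by 1.27 (adjusted p = 0.103), the cathepsin Ctsl by 1.51 (adjusted p = 0.0604) and the acute-phase protein Saa1 by 0.50 (adjusted p = 0.522). Markers of macrophages and dendritic cells differed by a median of 0.56, with 0 of 23 past the threshold (3 with an unadjusted p under 0.05) and means of the list from 8.4 to 8.65 on PBS and 8.94 to 9.21 on AzaC arrays; their part in these values was not tested.

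Genes that mark luminal progenitors showed large rises. Kit, the stem cell factor receptor, read 7.33 and 7.18 with PBS and 11.79, 10.78 and 11.61 with AzaC and rose by 4.14 ± 0.90 (SE, adjusted p = 0.0234), 17.6-fold, with 4.03 at a second probe set. Aldh1a3, a retinal dehydrogenase, read 4.53 and 3.15 with PBS and 9.31, 7.76 and 8.48 with AzaC and rose by 4.68 ± 1.24 (SE, adjusted p = 0.0433); its PBS values are low, which makes the size less certain. Cd14, a pattern receptor that involution also raises, read 10.5 and 9.89 with PBS and 13.74, 13.92 and 14.06 with AzaC and rose by 3.71 ± 0.75 (SE, adjusted p = 0.0193). With Ehf these were the 4 of 14 members that rose (0 to 4 with an array left out), and none fell; the median was 0.59. Elf5, Lbp (0.83), Lcn2 (0.26), Ltf (0.35) and Gabrp (-0.4) did not pass. In bulk samples more cells of a type and more RNA per cell cannot be told apart.

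Luminal keratins and junction genes were higher without passing in most cases. Of 20 genes 2 rose (0 to 4 with an array left out), Tjp1, a tight junction scaffold (1.21), and Marveld2, of tricellular junctions (1.11), with a median of 0.93. Krt8 differed by 1.29 (adjusted p = 0.0866), Krt18 by 1.4 (adjusted p = 0.0504), E-cadherin Cdh1 by 1.5 (adjusted p = 0.0503) and the claudin Cldn4 by 2.32 (adjusted p = 0.0646). Basal genes had a median of 0.08 over 27: Krt5 differed by 0.07 (adjusted p = 0.924), Krt14 by 0.08 (adjusted p = 0.883), p63 Trp63 by -0.18 (adjusted p = 0.675) and the contractile actin Acta2 by 0.13 (adjusted p = 0.712). Probe sets disagreed for Krt14 (-0.82 to -0.25 at the others) and Trp63 (0.73 to 1.5). Itgb4, a hemidesmosome integrin, rose by 2.51 ± 0.57 (SE, adjusted p = 0.0274), and Krt15 fell by 2.29 ± 0.39 (SE, adjusted p = 0.012). These were the 1 rise and 1 fall among the 27 basal genes, while 3.76% of all genes rose and 3.81% fell. Among hormone-sensing genes Cited1, a cofactor of the oestrogen receptor, fell by 2.06 ± 0.43 (SE, adjusted p = 0.0221), while Esr1, the oestrogen receptor, differed by -0.33 (adjusted p = 0.66) and the progesterone receptor Pgr by 1.12 (adjusted p = 0.483), at low values.

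Immediate early genes, which respond within minutes to stimuli, rose in part. Of 37 measured, 10 rose and none fell (0 to 10 with an array left out), with a median of 0.45. Jun, of AP-1, read 7.48 and 6.61 with PBS and 9.84, 9.56 and 10.32 with AzaC and rose by 2.86 ± 0.71 (SE, adjusted p = 0.0364); Atf3, a stress-induced factor, rose by 2.47 ± 0.64 (SE, adjusted p = 0.0402); Klf4 (1.33) and Klf10 (2.42), zinc finger factors, rose. Btg1 (1.79) and Btg2 (2.57), antiproliferative genes, Dusp1, a MAP kinase phosphatase (1.57), Ier3 (1.85) and Zfp36l1, which degrades mRNA (1.36), rose as well, and Junb completes the 10. Fos differed by 1.97 (adjusted p = 0.0599), Egr1 by 2.44 (adjusted p = 0.069), Nr4a1 by 0.46 (adjusted p = 0.227) and Myc by -0.35 (adjusted p = 0.375). These genes are known to respond to tissue digestion, and every array came from digested glands; its part was not tested. Cytosolic heat shock genes, another response to handling, had a median of -0.1, with 1 of 22 up (Hspa2, 0.84) and 1 down (Bag1, -0.89). Of all genes 7.57% were called.

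In the NF-kB list 6 of 29 genes rose and none fell (0 to 4 with an array left out), with a median of 0.32. Of all genes 3.76% rose. Zc3h12a, a ribonuclease that degrades inflammatory mRNAs, read 3.85 and 3.17 with PBS and 8.74, 8.07 and 8.28 with AzaC and rose by 4.85 ± 0.61 (SE, adjusted p = 0.00683), 28.9-fold from a low PBS level. The subunits Rela (1.29) and Relb (2.8), the inhibitor Tnip1 (0.68) and the chemokine Cxcl1 (2.08) rose. Among other NF-kB genes that did not pass, Nfkbia differed by -0.19 (adjusted p = 0.73), Tnfaip3 by -0.08 (adjusted p = 0.905), Ccl2 by 0.32 (adjusted p = 0.724) and Tnf by 0.30 (adjusted p = 0.513).

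Some growth factor receptors and TGF-beta genes rose. Erbb3, the kinase-poor partner in the ERBB family, read 8.77 and 9.03 with PBS and 12.06, 11.07 and 11.86 with AzaC and rose by 2.76 ± 0.41 (SE, adjusted p = 0.01); a dim second probe set gave 0.01. Erbb2, its partner, read 6.7 and 6.01 with PBS and 8.61, 8.36 and 8.82 with AzaC and rose by 2.24 ± 0.39 (SE, adjusted p = 0.0129). Egf, a ligand of the family made by the secretory cell, went the other way: it read 10.58 and 10.71 with PBS and 8.38, 9.39 and 8.25 with AzaC and fell by 1.97 ± 0.42 (SE, adjusted p = 0.023). The receptors Egfr and Erbb4 did not pass, with -0.17 (adjusted p = 0.555) and -0.08 (adjusted p = 0.96), so 2 of 16 rose (0 to 3 with an array left out) and 1 fell in this axis. In the TGF-beta list 6 of 39 rose and none fell (0 to 11 with an array left out), median 0.58, with 35 positive changes: beside Tgfb3 these were Ltbp1, which stores the ligand (2.69), the receptor Acvr1b (0.80, with 0.01 at a second probe set), the transducers Smad1 (1.51) and Smad4 (1.19) and the repressor Tgif1 (1.71). Of 39 WNT and NOTCH genes 3 rose (0 to 5, and above 0 only without AzaC replicate 2; 3.76% of all genes rose): Notch1 rose by 2.48 ± 0.47 (SE, adjusted p = 0.0159), Notch2 rose by 1.6 ± 0.36 (SE, adjusted p = 0.0262), with 0.19 at a dim second probe set, and Wnt5b rose by 2.99 ± 0.75 (SE, adjusted p = 0.0372). In the IGF axis the receptor Igf1r rose by 1.16 ± 0.30 (SE, adjusted p = 0.0415), and with Pik3r1 made 2 of 20 (0 to 3).

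Genes of DNA replication fell. Of 46 measured genes 12 fell and none rose, with a median of -0.94, and 44 of 46 changes were negative. Without AzaC replicate 2, 21 fell, and 0 without any other of the 5 arrays. Licensing factors came first: Cdc6, which loads the helicase, read 6.56 and 7.5 with PBS and 3.81, 5.39 and 3.85 with AzaC and fell by 2.68 ± 0.50 (SE, adjusted p = 0.0159), and Cdt1, its partner, fell by 1.84 ± 0.45 (SE, adjusted p = 0.0339), with -1.65 and 0.18 at its other probe sets. Of the helicase, Mcm5 read 9.91 and 10.23 with PBS and 7.67, 9.14 and 7.44 with AzaC and fell by 1.99 ± 0.43 (SE, adjusted p = 0.0232), with Mcm6 (-1.74) and Mcm4 (-1.34). Pcna, the clamp of the polymerase, read 11.14 and 11.51 with PBS and 8.74, 10.36 and 9.51 with AzaC and fell by 1.79 ± 0.39 (SE, adjusted p = 0.0239). Pola1 (-1.25) and Pole (-1.55), polymerase subunits, Dtl, which degrades Cdt1 (-3.22), Chaf1b, a histone chaperone (-0.9), and Rrm1, of ribonucleotide reductase (-2.1), fell, and Uhrf1, described with the methylation genes, completes the 12. AzaC replicate 2 was the AzaC array nearest PBS in each of these genes.

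E2F factors are known to drive this set, and its promoters are shown for that reason. The letters TTTCCCGC and TTTGGCGC, on both strands, are in the windows of 11 of the 39 replication genes that have one (28.2%), against 2.97% of measured genes and 1.56% of all windows. Of the 12 that fell, 10 have a window and 6 hold a match: Cdc6, Cdt1, Dtl, Mcm5, Mcm6 and Pola1. The 250 bases before the start of 3 of them follow, with the match in capitals.
Mcm6, chr1:128359706-128359955, minus strand: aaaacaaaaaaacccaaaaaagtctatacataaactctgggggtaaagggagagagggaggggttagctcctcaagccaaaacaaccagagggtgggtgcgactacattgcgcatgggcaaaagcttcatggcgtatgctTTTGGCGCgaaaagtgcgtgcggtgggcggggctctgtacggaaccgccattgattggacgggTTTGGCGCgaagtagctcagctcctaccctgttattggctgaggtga
Mcm5, chr8:75109259-75109508, plus strand: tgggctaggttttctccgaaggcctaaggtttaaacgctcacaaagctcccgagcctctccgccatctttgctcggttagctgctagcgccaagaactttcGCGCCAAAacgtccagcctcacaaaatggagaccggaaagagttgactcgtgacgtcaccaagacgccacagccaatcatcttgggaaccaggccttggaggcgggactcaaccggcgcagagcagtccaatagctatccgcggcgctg
Cdc6, chr11:98907901-98908150, plus strand: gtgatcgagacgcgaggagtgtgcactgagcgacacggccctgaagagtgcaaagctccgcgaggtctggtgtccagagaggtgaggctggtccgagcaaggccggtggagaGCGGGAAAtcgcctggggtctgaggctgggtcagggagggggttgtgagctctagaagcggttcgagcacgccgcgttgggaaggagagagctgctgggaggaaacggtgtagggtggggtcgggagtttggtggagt
Mcm6 holds 2 matches in this stretch and Mcm5 and Cdc6 hold 1 each. The stretches of Mcm6 and Mcm5 also hold CCAAT boxes, left in lower case.

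Mitosis genes were lower with more spread. Of 55 genes 7 fell and none rose, with a median of -1.3 and 53 negative changes. The median was -1.83 without PBS replicate 1 and -0.81 without PBS replicate 2. Without AzaC replicate 2, 26 fell, and without any other of the 5 arrays 0 or 1. Mki67, the proliferation marker, read 10.28 and 11.93 with PBS and 6.68, 9.39 and 6.37 with AzaC and differed by -3.62 (adjusted p = 0.0544). The PBS arrays themselves differed by more than 1 here, and AzaC replicate 2 lay nearest to them. The mean of the list was 7.46 and 8.7 with PBS and 6.42, 7.33 and 6.19 with AzaC. The 7 genes that passed were the kinesins Kif20a (-1.49) and Kif23 (-1.29, with -0.52 and 0.62 at dim probe sets), the condensin subunits Ncapg2 (-1.46) and Ncaph (-1.14), Cenph, of the centromere (-2.87), Cdc25b, a phosphatase (-0.83), and Bub1, a checkpoint kinase (-2.49, with -0.15 at a dim second probe set). Top2a differed by -2.49 (adjusted p = 0.0558) and Cdk1 by -2.56 (adjusted p = 0.0837).

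Among regulators of G1, Ccnd1, cyclin D1, read 11.87 and 12 with PBS and 9.68, 10.48 and 10.24 with AzaC and fell by 1.8 ± 0.31 (SE, adjusted p = 0.0121). Ccne1, cyclin E1, fell by 1.65 ± 0.42 (SE, adjusted p = 0.0374), and Rbl1, a pocket protein that cycling cells express, fell by 0.90 ± 0.19 (SE, adjusted p = 0.0231), with 0.03 at a second probe set. Rb1, the retinoblastoma gene, read 8.21 and 8.52 with PBS and 11.32, 10.67 and 11.91 with AzaC and rose by 2.94 ± 0.64 (SE, adjusted p = 0.0243). Cdkn1b, the p27 inhibitor, read 7.88 and 8.79 with PBS and 9.92, 9.94 and 9.97 with AzaC and rose by 1.61 ± 0.28 (SE, adjusted p = 0.0121), and Mxd4, an antagonist of MYC, rose by 1.67 ± 0.30 (SE, adjusted p = 0.0135), with 0.10 to 2.18 at its other probe sets. These 3 rises and 3 falls (0 to 3 of each with an array left out) were among 29 genes, whose median was -0.03. Cdkn1a, the p21 inhibitor, differed by -0.28 (adjusted p = 0.439). In the p53 list 5 of 26 rose (0 to 6 with an array left out), among them Gadd45a (3.42), Trp53inp1 (3.12) and Xpc (1.46), and Aen fell (-0.68), while Mdm2 differed by 0.08 (adjusted p = 0.829) and Bbc3 by 0.93 (adjusted p = 0.203). Gadd45a read 4.0 and 3.89 with PBS and 7.01, 6.92 and 8.18 with AzaC. Of 25 genes of the BCL2 family and caspases Casp6 rose (1.0) and the others did not pass, Bcl2l11 among them at 1.33 (adjusted p = 0.114). Of all genes 3.76% rose.

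The targets of AzaC did not pass at the transcript level. Dnmt1, which copies methylation after replication, read 10.27 and 10.54 with PBS and 10.51, 10.1 and 10.38 with AzaC and differed by -0.08 (adjusted p = 0.861), with overlapping groups. Dnmt3a, a methyltransferase that sets new marks, differed by 0.41 (adjusted p = 0.222), Dnmt3b by 0.73 (adjusted p = 0.0727) and the methylcytosine oxidase Tet1 by 0.20 (adjusted p = 0.676). Cofactors of Dnmt1 at the replication fork did pass: Uhrf1, which recruits it, read 9.08 and 10.17 with PBS and 5.44, 7.97 and 4.63 with AzaC and fell by 3.61 ± 0.92 (SE, adjusted p = 0.0374), 12.2-fold lower, and Hells, a remodeller that methylation needs, read 7.73 and 8.79 with PBS and 5.56, 6.4 and 5.05 with AzaC and fell by 2.59 ± 0.51 (SE, adjusted p = 0.018). For both, AzaC replicate 2 was the AzaC array nearest PBS, as for the replication genes. Gadd45a and Gadd45b (1.48), stress genes linked to demethylation, rose, so 2 of 19 rose and 2 fell (0 to 3 and 0 to 2 with an array left out). Of all genes 3.76% rose and 3.81% fell. Gnmt, which consumes the methyl donor S-adenosylmethionine, fell by 3.12 ± 0.74 (SE, adjusted p = 0.0309).

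Enzymes that handle cytidine analogues changed in both directions. Of 17 genes 4 fell and 2 rose (0 to 5 fell with an array left out), while 3.81% of all genes fell and 3.76% rose. Uck2, the kinase that activates AzaC, read 9.67 and 9.63 with PBS and 7.66, 8.52 and 7.51 with AzaC and fell by 1.75 ± 0.30 (SE, adjusted p = 0.012), and its relative Uckl1 rose by 1.21 ± 0.24 (SE, adjusted p = 0.0177). Nme1, a nucleoside diphosphate kinase, fell by 1.76 ± 0.43 (SE, adjusted p = 0.0334), and Rrm1, which makes the deoxy form, fell by 2.1 ± 0.50 (SE, adjusted p = 0.0308). The concentrative transporter Slc28a3 fell by 0.99 ± 0.21 (SE, adjusted p = 0.0211), and Slc29a3, of lysosomes, rose by 1.98 ± 0.47 (SE, adjusted p = 0.0305). Cda, which deaminates cytidine, differed by 0.02 (adjusted p = 0.971), and Samhd1, which degrades deoxynucleotides, differed by 1.79 (adjusted p = 0.0551).

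Groups that loss of DNA methylation is known to release held few genes that passed. None of 23 germline genes passed (median -0.16); the smallest p were those of Tex11 (-0.98, adjusted p = 0.0582) and Mov10l1 (1.91, adjusted p = 0.121). Of 29 imprinted genes 1 passed, Dhcr7, the sterol enzyme above; Igf2, a growth factor expressed from the paternal copy, differed by 0.28 (adjusted p = 0.619). In the interferon and double-stranded RNA response 1 of 38 passed and fell (Ifi35, -1.17). The median was 0.42, and 32 of 38 changes were positive. All AzaC arrays lay above both PBS arrays for 16 of the 38 and below for 4. Among all genes these shares were 23.5% and 20.9%. The sensor Ifih1 differed by 1.05 (adjusted p = 0.113), Irf7 by 0.07 (adjusted p = 0.846) and Mx1 by 0.54 (adjusted p = 0.228). The shares that passed in these 3 lists lie under the 7.57% called among all genes. An unadjusted p under 0.05 was reached by 6 of 23 germline, 4 of 29 imprinted and 7 of 38 interferon genes. Of all genes 26.2% reached it, a share that the germline list is near. Of the 23 germline genes 12 lay under 5 on every array. Some histone modifiers rose: Hdac5 (1.51), Hdac7 (1.04) and Sirt2 (1.4) of 13 deacetylases (0 to 3 with an array left out), while Hdac1 differed by -0.34 (adjusted p = 0.373), and 5 of 29 acetylation and methylation genes (0 to 7), namely the demethylases Kdm3a (1.56) and Kdm5b (1.44) and the methyltransferases Ehmt2 (1.31), Kmt2e (1.41) and Ezh1 (1.18).

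A minority of the nuclear genes for mitochondrial proteins fell. All 33 measured nuclear genes of respiratory complex I had a negative change, with a median of -0.69, and 6 fell (0 to 6 with an array left out). Ndufab1, the acyl carrier subunit, read 11.44 and 11.33 with PBS and 9.81, 10.51 and 10.47 with AzaC and fell by 1.12 ± 0.25 (SE, adjusted p = 0.0265), with -0.31 and -0.22 at its other probe sets. In complexes II to V 8 of 40 fell and none rose (0 to 11), median -0.6, among them Atp5g1, of ATP synthase (-1.4), Uqcrq (-1.4) and Cycs, cytochrome c (-1.19). Of 74 mitochondrial ribosomal proteins 6 fell (0 to 10), median -0.42, led by Mrps25 (-1.25, with -0.27 to 0.58 at its other probe sets) and Mrps7 (-1.07). Cytosolic ribosomal proteins had a median of -0.2 and 0 of 48 passed (7 with an unadjusted p under 0.05). Of all genes 3.81% fell and 7.57% were called.

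**Figure D4:**
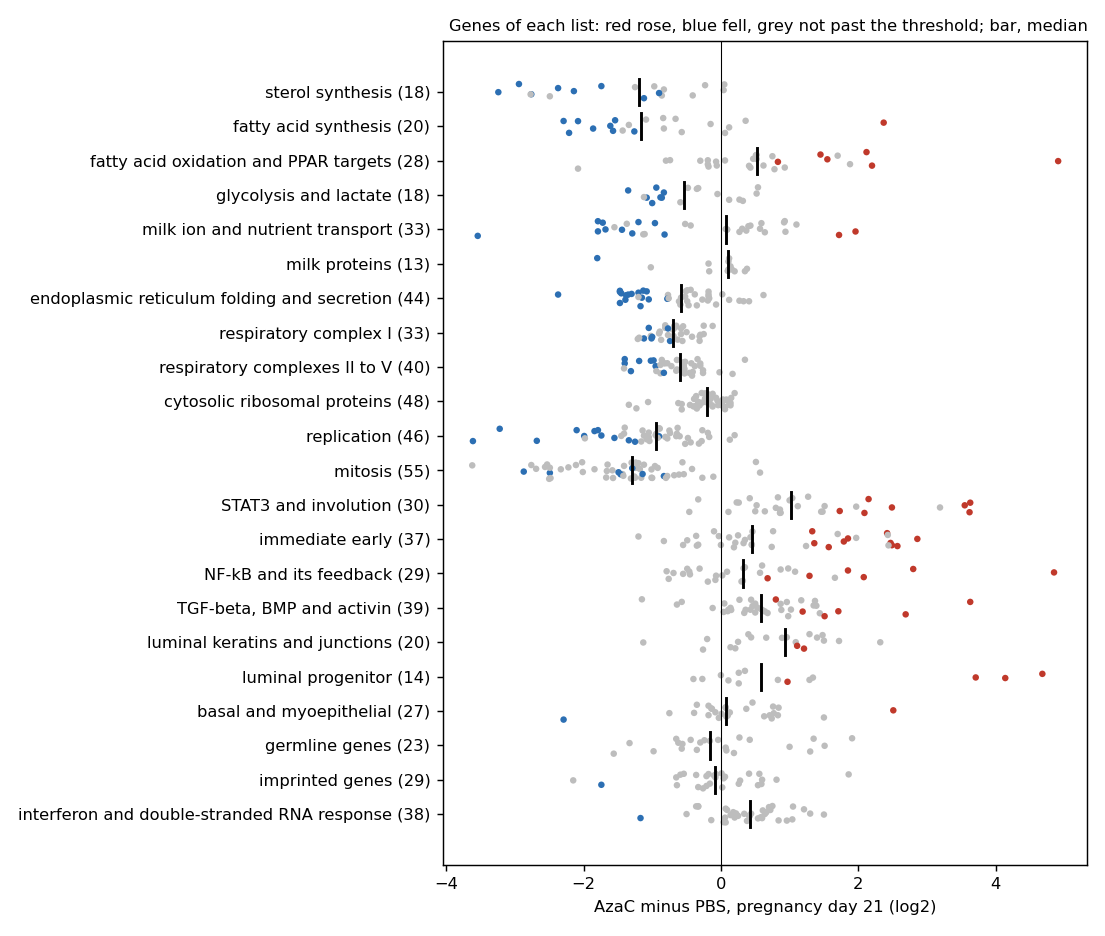
Change of each gene (AzaC minus PBS at pregnancy day 21, log2, horizontal axis) in 22 gene lists, with the number of measured genes in brackets, red for genes that rose, blue for genes that fell and a bar at the median. Medians run from -1.3 for mitosis and -1.19 for sterol synthesis to 1.02 for STAT3 and involution; the germline and imprinted lists lie around 0.

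In the integrated stress response 3 of 33 fell (0 to 2 with an array left out), and 7.57% of all genes were called: Psat1, of serine synthesis (-2.41), Slc38a2, an amino acid carrier (-1.2), and Aars (-1.03), while Atf4 differed by -0.38 (adjusted p = 0.528) and Ddit3 by 0.59 (adjusted p = 0.125). Lysosomal genes rose for 5 of 36 (0 to 5), led by Scarb2 (2.33) and Lgmn, a protease (1.77), with Lamp2 (1.4), and fell for Ctsc (-1.11) and Atp6v1h (-0.98). Of 19 clock genes 2 rose (0 to 3) and 1 fell: Bhlhe40 (1.57) and Csnk1e (1.13), and Cry1 (-1.24). In the matrix list Adamts5, an aggrecanase, read 12.12 and 12.04 with PBS and 8.07, 10.24 and 7.94 with AzaC and fell by 3.33 ± 0.71 (SE, adjusted p = 0.023), while Mmp11 (1.97) and Mmp9 (0.78, with -0.23 at a second probe set) rose; the collagen Col1a1 differed by 0.80 (adjusted p = 0.329).

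Outside the lists, large rises were those of Tubb2b, a beta-tubulin (4.62), Plscr2 (4.57), Basp1, a membrane-bound signalling protein (4.48), Nfe2l3, a transcription factor (4.26), Zfp704 (3.94) and Slc5a8, a monocarboxylate carrier (3.84). Basp1 read 9.16 and 8.36 with PBS and 13.74, 12.89 and 13.09 with AzaC. Among the large falls, Odc1, the first enzyme of polyamine synthesis, read 12.78 and 13 with PBS and 10.41, 11.04 and 9.38 with AzaC and fell by 2.61 ± 0.55 (SE, adjusted p = 0.0222). Srm, spermidine synthase (-1.99), and Azin1, which protects Odc1 from degradation (-1.57), chosen after their values were seen, fell as well. Apln, the peptide apelin, read 11.52 and 10.74 with PBS and 7.95, 9.57 and 7.49 with AzaC and fell by 2.79 ± 0.59 (SE, adjusted p = 0.0225).

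Markers of other cell types were compared because the purified cells can hold some. Of 21 endothelial genes 2 rose, Cldn5 (1.8) and Aqp1 (1.72), while 3.76% of all genes rose. The median was 0.85, and the mean of the list was 6.92 and 7.52 on PBS and 7.74 to 8.44 on AzaC arrays. All 18 fibroblast markers had a positive change (median 0.60, 0 passed, 5 with an unadjusted p under 0.05), and their mean went from 8.15 and 8.27 to 8.51 to 9.21. Adipocyte markers had a median of 0.52 (0 of 14 passed; 9.1 and 9.35 against 9.47 to 9.92), muscle and erythroid genes 0.58 (0 of 14; 9.53 and 10.65 against 9.56 to 10.96). Lymphocyte (-0.09, 0 of 19), neutrophil (0.01, 0 of 11) and salivary and skin genes (0.17, 0 of 13) had medians near 0. The part of other cells in the rises of TGF-beta, matrix and NOTCH genes was not tested. Defining markers such as Pecam1, of endothelium, read 6.3 and 6.66 with PBS and 6.66, 8.05 and 8.14 with AzaC, and Pdgfra, of fibroblasts, 6.85 and 7.17 with PBS and 7.68, 7.45 and 8.49 with AzaC; the B cell gene Cd79a read 6.07 and 6.11 with PBS and 5.98, 4.42 and 4.3 with AzaC.

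VPA at the same stage was set beside AzaC. It shares the 2 PBS arrays, so only the values are given side by side. VPA against PBS called 5.98% of genes. Cyp51 differed by -3.06 with VPA and -3.24 with AzaC, Uhrf1 by -3.7 and -3.61, Socs3 by 3.66 and 3.62, and Kit by 3.8 and 4.14. List medians were -1.46 with VPA and -1.19 with AzaC for sterol synthesis, -0.99 and -0.94 for replication, 1.21 and 1.02 for STAT3 and involution, and -0.24 and -0.69 for complex I. AzaC was then tested against VPA directly. The PBS arrays are left out of that difference and entered only the shared estimate of the spread. No gene passed (0% of 12393; smallest adjusted p = 0.189; 468 with an unadjusted p under 0.05). This does not show that the drugs act alike: the 95% interval of a difference extended 0.56 to each side for the median gene. For Socs3 the difference was -0.04 ± 0.26 (SE, adjusted p = 1) and for Ndufab1 -0.57 ± 0.22 (SE, adjusted p = 1). The smallest p belonged to dim genes such as Otx2, listed at 0 on both PBS arrays and at 2.25, 3.47 and 1.07 with AzaC (2.26 ± 0.43 SE, adjusted p = 0.885), Foxd4 and Sp7, with the higher value under AzaC, and Cdr2l and Taf7l, with the higher value under VPA. Lgals1, galectin-1, at a measurable level, read 10.12 and 10.04 with PBS and 9.53, 9.65 and 9.74 with AzaC and 10.38, 10.38 and 10.84 with VPA, a difference of -0.89 ± 0.17 (SE, adjusted p = 0.885).

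**Figure D5:**
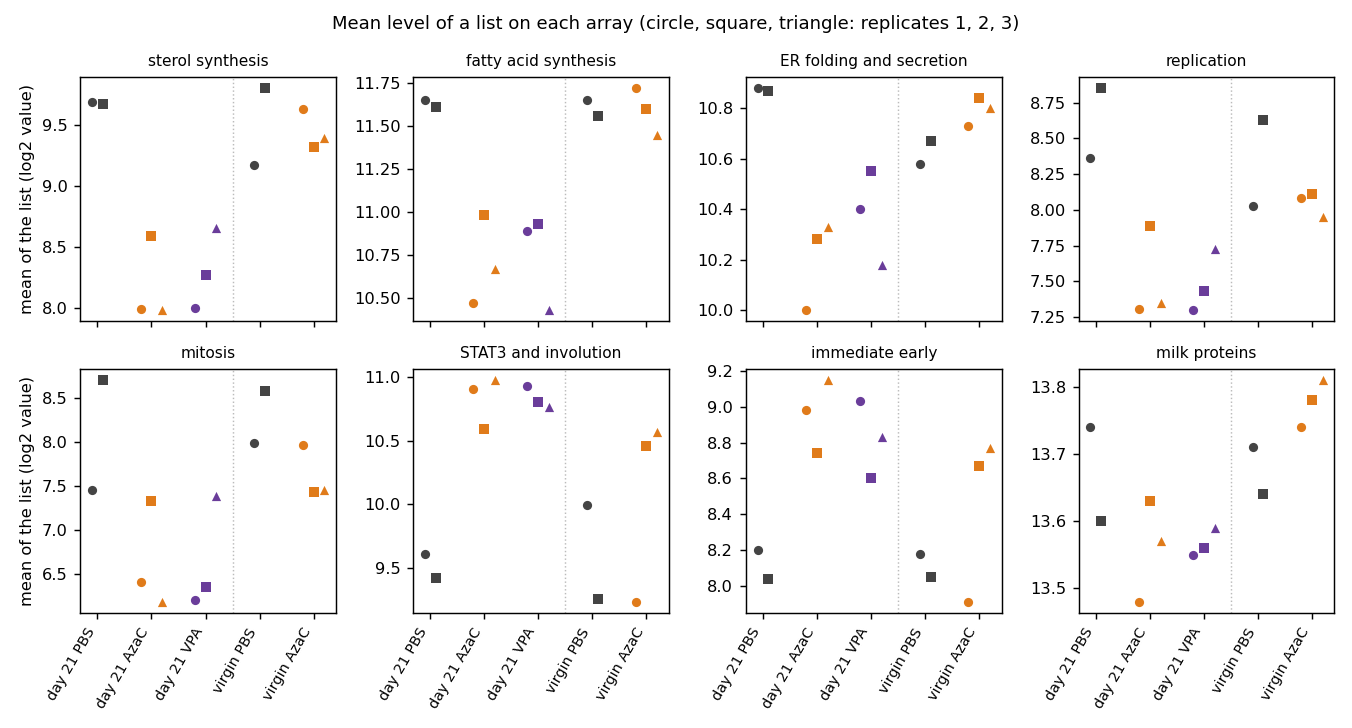
Mean deposited log2 value over the genes of 8 lists (vertical axes, each with its own range) on each PBS, AzaC and VPA array of day 21 and each PBS and AzaC array labelled virgin, with replicates by symbol. For sterol synthesis the day 21 PBS arrays lie at 9.69 and 9.67, the AzaC arrays between 7.98 and 8.59, and the AzaC arrays labelled virgin between 9.32 and 9.63.

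AzaC in females labelled virgin gave no call (0% of 12393; smallest adjusted p = 0.12; 849 with an unadjusted p under 0.05). That comparison shares no array with day 21. The mean over the milk protein genes was 13.71 and 13.64 on virgin PBS arrays, against 13.74 and 13.6 on day 21 PBS arrays. Milk protein transcripts thus do not separate the labels, and the state of the glands labelled virgin was not tested. The 466 genes that rose at day 21 had a median of 0.39 there and the 472 that fell a median of 0.00. All virgin AzaC arrays lay above both virgin PBS arrays for 108 of those that rose (23.2%; 11.5% of all genes) and below for 33 of those that fell (6.99%; 6.80% of all genes), but above for 51 of those that fell. Of the genes that fell at day 21, Cyp51 read 8.11 and 9.2 with PBS and 8.56, 8.35 and 8.44 with AzaC. Of the genes that rose, Socs3 read 6.93 and 6.88 with PBS and 8.52, 8.78 and 8.54 with AzaC. Kit read 9.11 and 6.74 with PBS and 7.26, 10.41 and 9.98 with AzaC, where replicate 1 lay within the PBS range; the same array stood apart in the STAT3 list, at 9.23 against 10.46 and 10.57.

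The difference between the AzaC effect at day 21 and that in arrays labelled virgin was tested itself, with the stage taken from the labels. No gene passed (0%; smallest adjusted p = 0.124; 1587 with an unadjusted p under 0.05), and the 95% interval extended 0.89 to each side for the median gene. The smallest p belonged to Slc2a1, with a difference of -1.3 ± 0.18 (SE, adjusted p = 0.124), and Tfdp1, the E2F partner (-1.36 ± 0.21 SE, adjusted p = 0.124), both lower at day 21. Mst1r, at the bottom of the scale, had a p between theirs and no interpretable difference. In the other direction they belonged to Wfdc5 (1.75 ± 0.32 SE, adjusted p = 0.124), Vegfd, a lymphangiogenic factor (1.22 ± 0.23 SE, adjusted p = 0.124), and Rgs14, a G protein regulator (1.58 ± 0.29 SE, adjusted p = 0.124). Tfdp1 read 9.99 and 10.24 with PBS and 9.12, 9.21 and 9.0 with AzaC at day 21. With values under 5 set to 5 the count was 49, without genes under the median level 29, and without AzaC replicate 2 of day 21 it was 42.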

How the data were processed

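Biotinylated cRNA from 15 samples was hybridised to 1-colour Affymetrix arrays, per the labels. The authors deposited processed log2 signals, 1 per probe set, already brought to a common scale between arrays. That scale is read from the range of the values, and the logarithm's base, the normalization and the software are not given in the sources used here. Array medians lie between 7.22 and 7.47. Of 22690 probe sets, 20380 have 1 gene symbol in the platform annotation, 691 have several and 1619, with 64 controls, have none. For each of 12393 genes the probe set that was brightest on average across the 15 arrays was used. Its values entered limma 3.58.1 in R 4.3.3 (lmFit and eBayes, 1 mean per group, all 15 arrays, 6 groups), which gave two-sided p-values, adjusted by the Benjamini-Hochberg method over all genes, with a threshold of 0.05. Errors are SE of the fit. The fit was tested on simulated data.

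The comparisons are AzaC against PBS and against VPA at day 21, AzaC against PBS in arrays labelled virgin, and the difference between stages. The number of arrays limits the precision. Named genes are the 12 largest rises and 12 largest falls with a group mean of at least 8 and no overlap between groups, up to 4 members past the threshold per list, the members needed to follow a pathway, a set of fixed genes, and 3 genes in each direction with the smallest p in the other tests. The 50 gene lists and these rules were chosen with earlier results of these data known. Alternatives changed the normalization, the filter, the probe set rule, the variance model, the floor, the arrays in the fit, a block for the replicate number and a covariate for RNA integrity. Promoter sequences are from RefSeq. Tet2, Tet3 and Prlr were not analysed here.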

Additional observations from a re-analysis of the deposited data

Results flagged for a closer look

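For 10 named genes that changed at day 21 or led the test between stages, all 3 AzaC arrays lay on one side of PBS at day 21 and on the other side in the arrays labelled virgin. Of all genes that fell at day 21, 10.8% lay above PBS on all virgin AzaC arrays, against 11.5% of all genes tested, and of those that rose, 1.29% lay below, against 6.8%. Groups of 2 or 3 arrays were not tested for an outlying array by a critical value.

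Among enzymes and carriers, Fdps differed by 0.40 in virgin arrays and by -2.76 at day 21, and the difference of -3.15 had an adjusted p of 0.137 in limma. Ebp gave 0.27 and -0.9 (adjusted p = 0.181 for the difference in limma). Aldoc gave 0.14 and -0.86 (adjusted p = 0.236 in limma). Slc2a1, the glucose transporter, gave 0.22 and -1.08, with an adjusted p of 0.124 in limma, and Slc7a4 gave 0.43 and -1.79, with the same adjusted p.

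In the secretory pathway, Ssr3 gave 0.36 and -1.08 (adjusted p = 0.19 in limma) and P4hb 0.22 and -0.78 (adjusted p = 0.164 in limma). Tfdp1, the E2F partner, gave 0.36 and -1.0. Mmp11, a matrix protease, moved in the opposite sense, with -0.42 in virgin arrays and 1.97 at day 21, and Vegfd with -0.64 and 0.58. The adjusted p of their differences were 0.198 for Mmp11 and 0.124 for Tfdp1 and Vegfd in limma. None of the 10 differences passed the threshold.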

How the results depend on the processing

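Of the 9 alternatives to the fit that do not leave out an array, the count of 938 genes stayed between 894 and 1309 with quantile normalization, genes under the median level left out, the mean of all probe sets, trend and robust variances, values under 5 set to 5, and a fold of at least 1.5. It was 466 with the replicate block, 1578 with the 3' to 5' difference as a covariate, and 0 with only the groups compared, whose 5 arrays leave fewer degrees of freedom. With 1 array left out in turn it ran from 14 to 1335. Whether the replicate numbers pair the arrays was not settled. Correlations of same-numbered arrays, taken on deviations from group means, ran from -0.457 to 0.681. They cannot decide it, because differently numbered arrays were not compared and deviations in a group of 2 arrays mirror each other.

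The difference between stages gave 0 genes, 29 with genes under the median level left out, 49 with values under 5 set to 5, 1 with only the groups compared, and 0 to 42 with 1 array left out. AzaC against VPA gave 0 genes, and 0 to 2 with 1 array left out (VPA arrays 1 and 3 and AzaC arrays 1 and 3 gave 1 or 2). The cause of these shifts was not tested.

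The difference turned sign or became 0 under at least 1 setting for the genes that follow, of which Mst1r, Otx2 and Slc30a1 had passed the test and the others had not. With quantile normalization the difference was -0.16 for Btn1a1, -0.10 for Cda, -0.06 for Csn2, 0 for Irf7, -0.08 for Mfge8. With the mean of all probe sets the difference was -0.04 for Btn1a1, 0.01 for Dnmt1, 0.24 for Egfr, -0.05 for Elf5, 0.34 for Ern1, 0.17 for Gabrp, 0.21 for Ighm, -0.33 for Krt14, -0.38 for Scd1, 0.69 for Trp63. With the replicate block the difference was -0.05 for Cda, -0.02 for Krt14, 0.03 for Tnfaip3, 0.02 for Xdh. With values under 5 set to 5 it was 0 for Cdr2l, Erbb4, Foxd4, Hba-a1, Mov10l1, Mst1r, Otx2, Pgr, Ppard, Slc30a1, Sp7, Taf7l, Tex11, which all lay under that floor. With 1 array left out in turn the difference ran over these ranges: -0.30 to 1.45 for Adipoq, -0.01 to 0.11 for Btn1a1, -0.12 to 0.17 for Cda, -0.21 to 0.06 for Dnmt1, -0.63 to 0.29 for Erbb4, -0.86 to 0.19 for Esr1, -0.29 to 1.91 for Foxd4, -0.06 to 0.62 for Igf2, -0.08 to 0.25 for Krt14, -0.17 to 0.31 for Krt5, -0.04 to 0.26 for Mdm2, -0.02 to 0.10 for Mfge8, -0.14 to 3.20 for Sp7, -0.12 to 0.51 for Tet1, -0.31 to 0.16 for Tnfaip3, -0.16 to 0.02 for Xdh.

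With 2 PBS arrays the precision is limited: the 95% interval of a difference extended 0.63 to each side for the median gene, and leaving out either PBS array left 16 or 14 genes. Values under 5 lie near background, and 46 genes that rose had a PBS mean there. The deposited table gives no detection calls, and its normalization is not stated.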
